A study of Homo sapiens with 22 samples.

Results

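Nodal, its co-receptor, its antagonists, a relative of the ligand and its nuclear partner were followed through the conversion of human fibroblasts to induced pluripotent cells. The 7 genes are NODAL, TDGF1, LEFTY1, LEFTY2, FOXH1, GDF3 and CER1, taken by name from the 33694 genes in the deposited files. All 7 were among the 12794 genes compared between days, which had a unique molecular identifier (UMI, a tag that marks 1 captured RNA molecule) in at least 5% of cells. Each of them reached that limit through the late days, where it was high. Their passing the limit thus supports nothing, and neither does a count of them called higher than on an earlier day. Expression is given in CPM, the UMIs of a gene in a pool of cells scaled to the same total of UMIs in every pool.

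BJ cells, an established line of human foreskin fibroblasts, were reprogrammed in microfluidic channels under 5% oxygen with 8 daily transfections, on days 1 to 8, of unmodified RNA for the 6 factors POU5F1, SOX2, KLF4, MYC, LIN28 and NANOG. The medium was changed to one for pluripotent cells from day 9, so days before and after D9 differ in medium and transfection as well as time. Cells were taken on D0, before the first transfection and labelled as control, and then on D3 and every second day from D5 to D15, which are labelled mRNA transfections. Each day has 2 pools, A and B, each from 4 independent chips, and cells were frozen and thawed before droplet capture. p-values between days measure the spread between the 2 pools of a day, estimated over all days together. Those between classes of cells measure how far the class difference varied between pools.

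The 16 pools held 571 to 6142 cells and 33181614 to 180056814 UMIs, with medians of 23717 to 80168 UMIs per cell. Summed over 10 fibroblast genes, the level was 11349 to 11526 CPM on D0 and 1412 to 1792 CPM on D15, while 9 pluripotency genes outside the transfected factors stood at 48.1 to 49.2 and 4525 to 4860 CPM. The fibroblast label thus matches the markers on D0, while all days carry that label. Of 231 pairs of libraries 151 shared at least 1 cell barcode, with at most 39 shared between 2 libraries.

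Nodal is a secreted ligand of the TGF-beta family that signals through activin receptors and SMAD proteins. It needs a co-receptor of the EGF-CFC type, here TDGF1 (also called CRIPTO), and in the nucleus the SMADs are joined by the forkhead factor FOXH1. LEFTY1, LEFTY2 and CER1 are secreted antagonists, and the LEFTY genes are known targets of the signal they block, while GDF3 is a related ligand of pluripotent cells. In human pluripotent cells this pathway helps to keep the undifferentiated state, and in the embryo it sets up mesoderm and endoderm.

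On GRCh38 with the GENCODE annotation, NODAL (ENSG00000156574) lies at chr10:70431936-70447951, TDGF1 (ENSG00000241186) at chr3:46574534-46582457, GDF3 (ENSG00000184344) at chr12:7689784-7695775 and CER1 (ENSG00000147869) at chr9:14719724-14722733. LEFTY1 (ENSG00000243709) at chr1:225886282-225911382 and LEFTY2 (ENSG00000143768) at chr1:225936598-225941383 are neighbours on the same strand. Counting in this assay reads the 3′ ends of transcripts. Of the 451 windows of 50 bases in the last 500 bases of TDGF1, 57.0% also occur in its processed copy TDGF1P3, so TDGF1 values are uncertain to the extent that reads were split or dropped between them. TDGF1 also overlaps LRRC2 on the other strand, which had 5679 UMIs in all against 396247 of TDGF1. For LEFTY1 8.20% of windows occur in an overlapping read-through entry, and LEFTY1 and LEFTY2 share none, so their reads can be told apart.

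The 250 bases before the start of 3 of the 7 genes were in the RefSeq promoter table used here (GRCh38.p14), and they are shown because FOXH1 and SMAD proteins act on such regions. In the gene's own direction, 5′ to 3′, capitals mark the letters searched on both strands. These were AATNCACA (reverse TGTGNATT, with N for any base), a loose form of the core bound by FOXH1, and CAGAC (reverse GTCTG), a SMAD box. They do not overlap.
CER1 (chr9:14722734-14722983, minus strand): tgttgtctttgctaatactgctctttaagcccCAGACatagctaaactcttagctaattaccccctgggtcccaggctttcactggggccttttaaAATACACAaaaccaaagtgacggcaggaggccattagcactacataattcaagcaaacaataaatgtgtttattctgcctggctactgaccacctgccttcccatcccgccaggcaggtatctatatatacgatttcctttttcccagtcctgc
GDF3 (chr12:7695776-7696025, minus strand): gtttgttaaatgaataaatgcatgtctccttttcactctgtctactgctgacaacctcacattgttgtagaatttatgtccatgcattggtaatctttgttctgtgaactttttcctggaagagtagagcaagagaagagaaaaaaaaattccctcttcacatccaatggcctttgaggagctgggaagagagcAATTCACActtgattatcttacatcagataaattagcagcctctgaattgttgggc
NODAL (chr10:70441682-70441931, minus strand): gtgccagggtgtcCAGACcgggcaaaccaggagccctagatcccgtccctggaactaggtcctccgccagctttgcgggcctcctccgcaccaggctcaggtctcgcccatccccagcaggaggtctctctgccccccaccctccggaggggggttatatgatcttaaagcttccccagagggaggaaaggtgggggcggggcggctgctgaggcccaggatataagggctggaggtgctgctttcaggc
The FOXH1 letters begin 154 bases before the start of CER1 and 56 bases before that of GDF3, and they occur in 2.89% of all 35116 promoters of the same length. The SMAD letters begin 218 bases before CER1 and 237 before NODAL and occur in 38.0% of promoters. For NODAL the RefSeq start lies inside the longer GENCODE gene. A match is only a match of letters, and binding was not measured.

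In the pool sums all 7 genes were at or near 0 in fibroblasts and were called higher in steps. TDGF1, GDF3, FOXH1 and LEFTY1 came first, on D3 and D5, NODAL rose on D7, all 7 rose on D9, the antagonists most, and CER1 rose further on D11. The start of this order is not firm. The calls on D3 rest on 22 UMIs of TDGF1 and 15 of GDF3. On D5 LEFTY2 was called by DESeq2 but not by edgeR, and LEFTY1 was not called in edgeR on the 4 pools alone. In pool sums more cells with a gene cannot be told apart from more RNA of it per cell, which the shares of cells further on address in part.

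The ligand NODAL was at 0.00600 and 0.00679 CPM in pools A and B on D0, 0.0107 and 0.0132 on D3, and 0.117 and 0 on D5, each of these from at most 10 UMIs. It reached 6.94 and 3.09 CPM on D7, 181 and 207 on D9, 161 and 131 on D11, 131 and 49.5 on D13, and 37.6 and 48.6 on D15. Its peak was thus D9, at 194 CPM ± 18.4 (SD, n = 2 pools), and the days after it followed in order without overlap of their pools, with D11 and D13, and D13 and D15, each parted by less than 1 CPM. GDF3, the related ligand, had no UMI on D0, where 3 UMIs would be 0.0180 and 0.0204 CPM. Its CPM was 0.107 and 0.0331 on D3, 2.64 and 3.09 on D5, 25.6 and 14.0 on D7, 97.7 and 96.1 on D9, 126 and 96.9 on D11, 105 and 54.8 on D13, and 56.0 and 58.2 on D15. D13 overlapped with D9, D11 and D15, and D9 with D11, while both pools of D15 were below those of D9 and D11.

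TDGF1, the co-receptor, was at 0.0180 and 0.00679 CPM on D0, 0.149 and 0.0530 on D3, 22.2 and 24.7 on D5, and 133 and 101 on D7. It stood at 477 and 465 CPM on D9, 299 and 414 on D11, 571 and 371 on D13, and 301 and 357 on D15. Its 4 last days overlapped in the order of their levels, all above D7. FOXH1, the SMAD partner (ENSG00000160973, chromosome 8 from 144473412 to 144475849, overlapping KIFC2 on the other strand, which had 4129 UMIs in all against 86742), was at 0.0780 and 0.0815 CPM on D0, 0.107 and 0.0993 on D3, 2.38 and 2.55 on D5, and 12.1 and 7.34 on D7. It then went to 51.5 and 52.5 CPM on D9, 104 and 88.2 on D11, 163 and 78.9 on D13, and 146 and 149 on D15. FOXH1 alone among the 7 had its highest mean on D15, 148 CPM ± 2.09, although D13 overlapped with it.

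The antagonist LEFTY1 was at 0.0660 and 0.0544 CPM on D0, 0.0639 and 0.0530 on D3, 1.58 and 0.482 on D5, and 1.39 and 1.10 on D7. Then it stood at 168 and 175 CPM on D9, 195 and 194 on D11, 175 and 76.6 on D13, and 118 and 126 on D15. D5 and D7 overlapped for LEFTY1, and so did D9 with D13 and D13 with D15. LEFTY2 was at 0.0720 and 0.0476 CPM on D0, 0.0213 and 0.0132 on D3, 0.387 and 0.0567 on D5, and 0.210 and 0.819 on D7. It reached 229 and 237 CPM on D9 and 308 and 302 on D11, and stood at 162 and 80.1 on D13 and 81.5 and 102 on D15. Both LEFTY genes were highest on D11, at 195 CPM ± 0.794 and 305 CPM ± 3.80. CER1, the last antagonist, had no UMI in any pool of D0, D3 or D5 and 1 UMI on D7, in pool B. It was at 0.588 and 0.906 CPM on D9, 109.7 and 91.2 on D11, 74.2 and 105 on D13, and 51.4 and 82.7 on D15. D13 overlapped with D11 and with D15, while both pools of D11 were above both of D15.

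**Figure D1:**
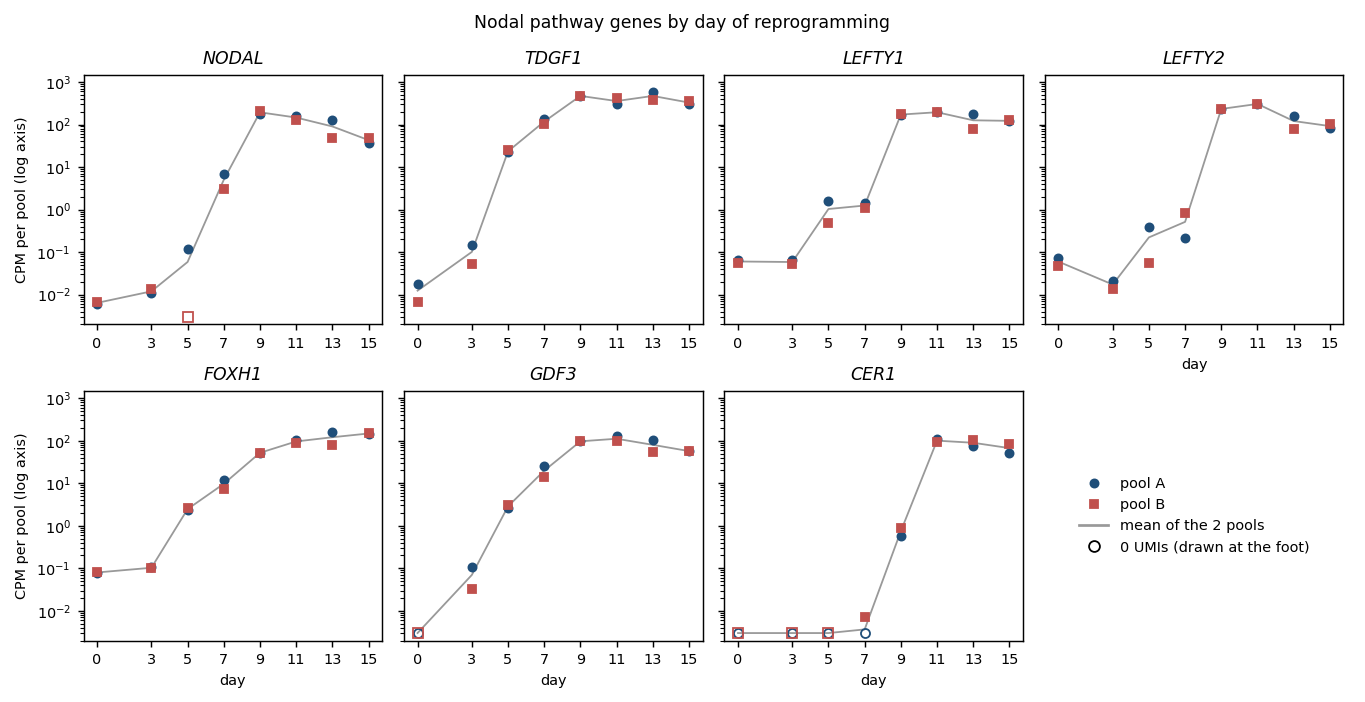
CPM of each gene (log axis) against the day, 1 point per pool (A circles, B squares, n = 2 per day), with a line through the means and open points for pools with 0 UMIs, drawn at the foot. TDGF1, FOXH1 and GDF3 are above 2 CPM in both pools from D5 on, NODAL from D7, both LEFTY genes from D9 and CER1 from D11.

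The pools of D13 stood apart from each other: A was over B by 0.62 (TDGF1) to 1.41 (NODAL) on the log2 scale for 6 genes, and CER1 was lower in A by 0.50. On the other late days the log2 difference of A from B for the same 6 genes ranged from -0.47 to 0.38. The summed fibroblast genes were at 5822 CPM in pool A and 2562 CPM in pool B of D13. The part of cell makeup in the spread of D13 was not tested. On D5 the 2 aliquots of a pool differed too, with TDGF1 at 48.4 and 16.4 CPM in those of pool B. Over 25 pairs of aliquots with 100 UMIs or more of a gene in both, aliquot 2 over 1 ranged from -1.56 to 0.57 on the log2 scale, with a median size of 0.141.

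Changes between days were tested with edgeR's quasi-likelihood test on the pool sums, all 16 pools in 1 fit, and a gene was called at a Benjamini-Hochberg adjusted p below 0.01, over all 12794 genes, with a log2 fold change beyond 0.25. Neighbouring comparisons share the pools of 1 day. The median log2 fold change over all genes lay within 0.1 of 0 in each of them.

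From D0 to D3, 2 of the 7 genes were called higher, where 13.1% of all genes were. TDGF1 went from 4 to 22 UMIs over both pools, a log2 fold change of 2.74 (SE 0.66, adjusted p = 0.00556), and GDF3 from 0 to 15 UMIs, at least 6.41-fold against 3 UMIs over both pools (adjusted p = 0.00792). Both rest on few molecules, and neither was called without pool A of D0, pool B of D0 or pool A of D3 (adjusted p from 0.0178 to 0.0559). Of the 6660 cells of D3, 69 had a UMI of any of the 7 genes, against 68 of 10776 cells on D0. Among those cells, 10.1% on D3 and 8.82% on D0 carried a barcode also found in a library of D9 to D15, against 1.96% and 2.30% of the other cells. How far such early UMIs come from other libraries was not tested.

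From D3 to D5, 4 of the 7 genes were called higher, where 3.2% of all genes were. TDGF1 changed by 7.91 on the log2 scale (SE 0.39, adjusted p = 8.20e-07), GDF3 by 5.42 (SE 0.51, adjusted p = 5.65e-05), FOXH1 by 4.51 (SE 0.37, adjusted p = 1.46e-05) and LEFTY1 by 4.15 (SE 0.54, adjusted p = 0.000445). In edgeR on the 4 pools of D3 and D5 alone, GDF3 (adjusted p = 0.0101) and LEFTY1 (0.0364) were not called. The call of LEFTY1 was lost without pool A of D5 (adjusted p = 0.0114). LEFTY2 had a log2 fold change of 3.85 (adjusted p = 0.0428) and was not called, though it was by DESeq2 (adjusted p = 0.000845) and without the filter on genes (0.00403). On D5 a UMI of any of the 7 genes was seen in 4.98% and 5.15% of cells at a depth of 5000 UMIs. Without thinning TDGF1 alone was seen in 14.2% and 16.4% of the cells of D5.

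From D5 to D7, again 4 of the 7 were called higher, against 1.81% of all genes, and now the ligand was among them. NODAL rose from 10 to 1413 UMIs over both pools, a ratio of 61.0 with a counting interval of 33.1 to 127 (adjusted p = 0.000354). All 10 were in pool A of D5, and without that pool NODAL was at least 59.4-fold higher against 3 UMIs. GDF3 rose by 2.79 on the log2 scale (SE 0.37, adjusted p = 0.00128), TDGF1 by 2.32 (SE 0.27, adjusted p = 0.000474) and FOXH1 by 1.98 (SE 0.29, adjusted p = 0.00176). TDGF1 was not called without pool A of D5 (adjusted p = 0.0198), and GDF3 and FOXH1 were not without pool A of D5, pool B of D5 or pool A of D7 (adjusted p from 0.0115 to 0.0521). The LEFTY genes were not called on this step, with log2 fold changes of 0.20 for LEFTY1 (adjusted p = 0.889) and 0.96 for LEFTY2 (adjusted p = 0.529).

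From D7 to D9, the step that spans the last transfection and the change of medium, all 7 genes were called higher, against 4.59% of all genes. As the 7 passed the 5% limit through the late days, this count supports nothing. The antagonists changed most, LEFTY2 by 8.79 on the log2 scale (SE 0.64, adjusted p = 8.58e-06) and LEFTY1 by 7.07 (SE 0.45, adjusted p = 5.69e-06). CER1 went from 1 to 170 UMIs over both pools, a ratio of 208 with a counting interval of 36.9 to 8273 (adjusted p = 0.000230). NODAL rose by 5.23 (SE 0.51, adjusted p = 4.38e-05), FOXH1 by 2.38 (SE 0.28, adjusted p = 0.000158), GDF3 by 2.25 (SE 0.35, adjusted p = 0.00144) and TDGF1 by 1.97 (SE 0.27, adjusted p = 0.000393). GDF3 missed the call without pool B of D7 (adjusted p = 0.0242) or pool B of D9 (0.0107), and TDGF1 without pool B of D7 (0.0112).

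The UMIs of CER1 on D9 were uneven between aliquots of the same pool. In pool A 1 aliquot of 143 cells held 58 of the 68 UMIs, 51 of them in 1 cell, and the other aliquot of 1599 cells held 10. In pool B 1 aliquot of 889 cells held 91 UMIs, in 32 cells, and the other held 11. In the aliquot of 143 cells, 1 of the 7 cells with CER1 had a barcode also found in a library of D11, and in the other 3 aliquots none had. The part of RNA from other libraries was not tested.

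From D9 to D11 CER1 alone of the 7 was called, 7.06 higher (SE 0.44, adjusted p = 0.000121), where 2.92% of all genes were called higher. The change of FOXH1, 0.87, was not called (adjusted p = 0.0626), though it was in edgeR on the 4 pools of D9 and D11 alone (0.85, adjusted p = 0.00927). From D11 to D13 and from D13 to D15 none of the 7 was called by edgeR or by DESeq2, and edgeR called only 15 and 11 of all 12794 genes in these steps, so nothing is read from it (2074 and 2962 genes had an unadjusted p below 0.05). The values furthest from 0 were those of LEFTY2 from D11 to D13, -1.31 (adjusted p = 0.171), and NODAL from D13 to D15, -1.001 (adjusted p = 0.185).

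**Figure D2:**
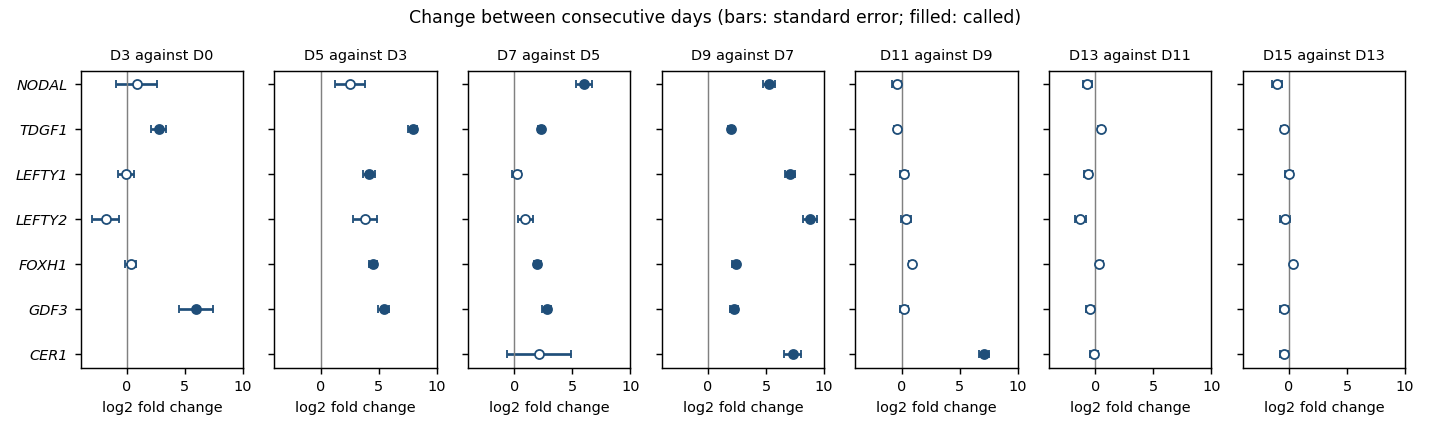
Log2 fold change of each gene (horizontal axis) between neighbouring days, 1 panel per step, with bars for the standard error and filled points for called changes, from edgeR on 16 pools. All 7 points are filled for D9 against D7, CER1 alone for D11 against D9, and none in the last 2 panels.

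Over the longer spans, D9 against D0 had all 7 called higher, where 24.5% of all genes were. This count supports nothing either, for the same reason as that of D7 to D9. TDGF1 was 14.94 higher on the log2 scale (SE 0.50, adjusted p = 1.66e-09), LEFTY2 11.76 (SE 0.75, adjusted p = 7.28e-08), LEFTY1 11.32 (SE 0.57, adjusted p = 1.39e-08) and FOXH1 9.20 (SE 0.41, adjusted p = 6.39e-09). For the genes with almost no UMI on D0 the fold is a bound or has a wide interval: at least 10134-fold for GDF3, at least 77.9-fold for CER1, and 30418-fold for NODAL with a counting interval of 8420 to 251179 on 2 UMIs. From D9 to D15 the genes parted. FOXH1 rose by 1.57 (SE 0.27, adjusted p = 0.00102) and CER1 by 6.56 (SE 0.43, adjusted p = 8.52e-06), 2 of 7 against 10.8% of all genes called higher. NODAL fell by 2.10 (SE 0.44, adjusted p = 0.00317), 1 of 7 against 10.2% called lower. Leaving out any 1 of its 4 pools, NODAL kept log2 fold changes of -2.31 to -1.92 but was not called (adjusted p from 0.0156 without pool A of D9 to 0.0438 without pool A of D15). FOXH1 kept 1.58 and 1.57 without pool A or B of D9 but was not called (adjusted p = 0.0144 and 0.0129). TDGF1 had a log2 fold change of -0.45 over this span (adjusted p = 0.174), LEFTY1 of -0.42 (adjusted p = 0.335), GDF3 of -0.70 (adjusted p = 0.120) and LEFTY2 of -1.27 (adjusted p = 0.0426). Fitted on the 4 pools of D9 and D15 alone, LEFTY2 (adjusted p = 0.000161), GDF3 (0.000782) and LEFTY1 (0.00832) were called lower as well, and LEFTY2 also without the filter on genes (0.00163).

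The share of cells with at least 1 UMI of a gene was taken after every cell was thinned to 5000 UMIs, a depth all 41975 cells reach. NODAL was found in 2.78% and 1.04% of cells on D7 (pools A and B), 31.6% and 40.5% on D9, 39.8% and 33.9% on D11, 33.0% and 19.8% on D13, and 13.7% and 18.2% on D15. D9 and D11 overlapped in share, and both pools of D15 were below every pool of D9 to D13. TDGF1 was found in 3.68% of cells in either pool on D5, 26.6% and 14.8% on D7, and from 54.8% (pool A of D11) to 75.7% (pool B of D15) from D9 on. TDGF1 thus was in more cells on D15 than on D9 in both pools, though its level was lower in both. LEFTY1 stayed at or below 0.869% of cells until D7, and was found in 21.6% to 37.3% of cells in the 8 late pools. GDF3 was in 10.4% and 4.12% of cells on D7 and in 21.4% to 33.2% later. CER1 was found in 0.230% and 0.544% of cells on D9, and on later days in 5.60% (pool A of D15) to 15.7% (pool B of D13). On D0 the share of any 1 of the 7 was at most 0.0651%, and for NODAL, GDF3 and CER1 it was 0 of 6142 cells in pool A (exact 95% upper limit 0.0600%).

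Without thinning the shares were far higher, 89.0% for NODAL and 66.5% for CER1 in pool A of D11 against 39.8% and 13.6%. Free RNA gives UMIs in cells that do not express a gene. It was not measured, so the shares in cells with fibroblast markers, given next for comparison, may hold both free RNA and expression. Intervals on shares (exact binomial) cover counting error only.

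At 5000 UMIs at least 1 of the 7 genes was seen in 0.163% and 0.0863% of cells on D0, 35.5% and 17.8% on D7, and 67.2% to 91.8% from D9 on. At least 3 of the 7 were seen in 1.39% and 0.639% of cells on D7, 35.4% and 40.9% on D9, 49.5% and 41.9% on D11, 48.5% and 32.9% on D13, and 32.6% and 40.8% on D15. Cells with all 7 were rare, from 0 to 5 per pool. Thus most late cells showed part of the pathway at this depth. Few showed all 7, a count that depends on depth. Without thinning each gene was seen in 66.5% (CER1) to 95.8% (LEFTY2) of the cells of pool A of D11.

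To see which cells carried the genes, the cells of D9 to D15 were put in classes by markers that are none of the 7. A cell's share of 10 fibroblast markers detected minus its share of 9 pluripotency markers detected had to be above 0.3 for the somatic class and below -0.3 for the pluripotency class. Cells with 2 or more of 10 mesendoderm markers (such as EOMES, MIXL1 and SOX17) were set apart first. These classes are ranges of a score, not cell types, and 58 to 680 cells of the pluripotency class lay within 0.1 of its limit in a pool. The pluripotency class held 9.30% (pool A of D11) to 78.1% (pool A of D15) of the cells, the somatic class 5.25% to 35.4%, and the mesendoderm class 4.20% to 5.997% from D11 on. Cells in none of these classes made up 12.4% (pool A of D15) to 51.9% (pool B of D9), and no class value includes them. In pool A of D11 the pluripotency, somatic and mesendoderm classes held 9.95%, 10.6% and 6.30% of the LEFTY2 UMIs. In pool A of D15 they held 63.0%, 0.148% and 26.7%. The rest lay in cells of no class. On D9 there were 5 and 7 mesendoderm-marker cells, too few to be compared. Median depth was 31464 to 73210 UMIs per cell in the pluripotency class and 20255 to 51362 in the somatic class.

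TDGF1 was the most widespread, with a UMI in 80.0% to 97.8% of pluripotency-class cells (median of 8 pools 92.3%) and in 6.67% to 31.8% of somatic-class cells (15.2%). FOXH1 was seen in a median of 52.4% against 3.26%, NODAL in 49.7% against 3.77%, GDF3 in 47.2% against 5.01%, LEFTY1 in 43.6% against 6.31%, and LEFTY2 in 36.4% against 9.38%. Over all pools the ranges of the classes overlapped for NODAL and LEFTY2, and within each pool the pluripotency class was higher for all 6. Within the pluripotency class NODAL was found in 66.9% and 70.2% of cells on D9, 54.4% and 54.0% on D11, 45.4% and 21.7% on D13, and 14.6% and 18.1% on D15. The lower NODAL of D15 was thus seen among cells with pluripotency markers too. In the same class FOXH1 was higher on D15 than on D9. It was found in 40.5% and 41.4% on D9, 54.4% and 50.5% on D11, 68.9% and 34.1% on D13, and 57.4% and 57.7% on D15. On D13 FOXH1 and NODAL were both lower in pool B than in pool A.

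In the somatic class pool A of D11 was high for most genes, such as 28.7% for LEFTY2 against 10.4% in pool B, and 11.2% for CER1 against 0.881%. For CER1 the pluripotency class of the same pool was at 11.03%, and the exact 95% intervals overlapped (somatic 9.35% to 13.3%, pluripotency 7.57% to 15.4%). As they cover counting error in 1 pool only, they cannot show whether the classes differ. GDF3 was in 0 of 30 somatic-class cells of pool A of D15 (exact 95% upper limit 11.6%).

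With UMIs summed per pool and class and the pool as a block, 6 of the 7 genes were called higher in the pluripotency class than in the somatic class in edgeR, a comparison in which 35.8% of all genes were called higher. FOXH1 was 3.74 higher on the log2 scale (SE 0.40, adjusted p = 8.86e-06), TDGF1 3.61 (SE 0.27, adjusted p = 8.52e-07), GDF3 3.49 (SE 0.43, adjusted p = 2.42e-05), LEFTY1 3.33 (SE 0.38, adjusted p = 1.50e-05), NODAL 3.16 (SE 0.34, adjusted p = 9.51e-06) and LEFTY2 2.23 (SE 0.29, adjusted p = 3.93e-05). Each of these 6 was higher in 8 of 8 pools. CER1 had a log2 difference of -0.85 (adjusted p = 0.146).

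From D11 on most UMIs of CER1 were in the mesendoderm-marker cells. CER1 was found in 55.2% to 78.1% of them, at 1177 to 1928 CPM, against 2.49 to 23.5 CPM in the pluripotency class. By count of cells this did not hold in every pool. In pool A of D11 397 cells had a CER1 UMI at 5000 UMIs while the class held 174 cells, and in pool B of D13 638 while it held 244. These cells, 4.20% to 5.997% of a pool, held 62.0% to 87.0% of the UMIs of CER1 (median 77.1%). For NODAL they held 7.62% to 12.3% of the UMIs, and for TDGF1 3.03% to 6.39%, close to their share of cells. Against the pluripotency class in the same 6 pools, 2 of the 7 genes were called higher, where 20.3% of all genes were, and 2 lower, where 18.9% were. CER1 was 7.20 higher on the log2 scale (SE 0.47, adjusted p = 2.61e-05) and NODAL 0.98 higher (SE 0.096, adjusted p = 8.70e-05), both in 6 of 6 pools. TDGF1 was 0.59 lower (log2 difference -0.59, SE 0.052, adjusted p = 5.46e-05) and FOXH1 0.65 lower (-0.65, SE 0.086, adjusted p = 0.000322), both in 6 of 6 pools. Without the block on the pool CER1 alone was called. LEFTY2 had a log2 difference of 1.21 (adjusted p = 0.0207), above 0 in 6 of 6 pools. Pool by pool, with 1 CPM added in both classes, it was 0.32 to 0.79 on D11 and D13 and 3.14 and 2.46 on D15. On D15 mesendoderm-marker cells held 26.7% and 20.8% of the LEFTY2 UMIs, and the difference between days was not tested. GDF3 had one of -0.64 (adjusted p = 0.0536) and LEFTY1 of -0.06 (adjusted p = 0.862).

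**Figure D3:**
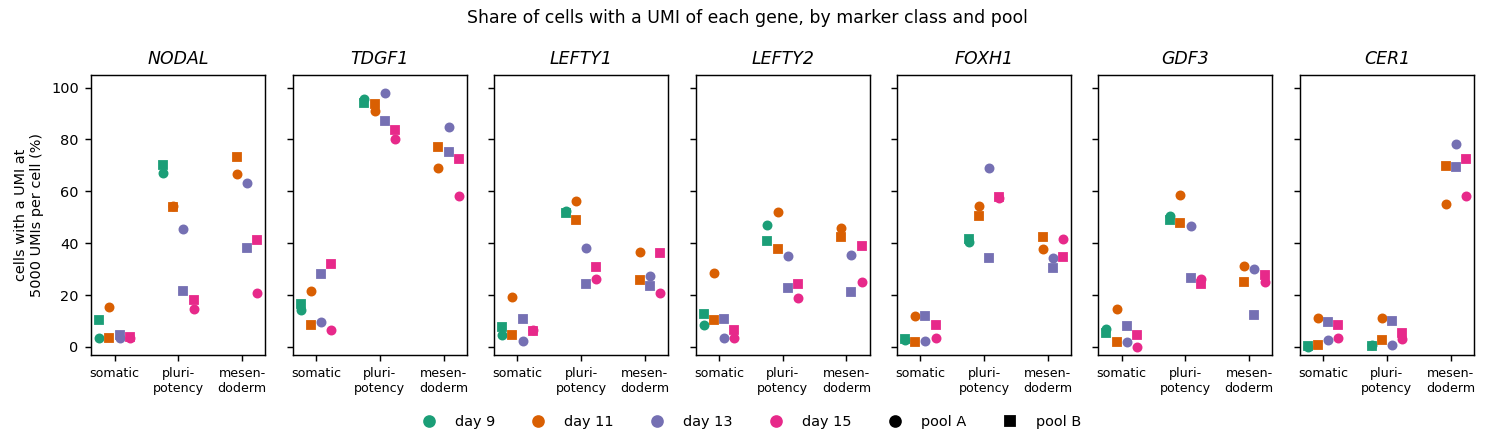
Percent of cells with a UMI of each gene at 5000 UMIs per cell (vertical axis) in the somatic, pluripotency and mesendoderm marker classes, 1 point per pool, coloured by day from D9 to D15. TDGF1 is at 80.0% to 97.8% in the pluripotency class, and CER1 from D11 on at 55.2% to 78.1% in the mesendoderm class, drawn without D9 for its few cells, against at most 11.2% in the others.

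LEFTY1 and LEFTY2, which lie next to each other, shifted against each other, a pattern chosen after its values were seen and so given with no test. Over all cells, those in no class included, the ratio of LEFTY2 to LEFTY1 UMIs was 1.36 and 1.35 on D9, 1.58 and 1.56 on D11, 0.92 and 1.04 on D13, and 0.69 and 0.81 on D15. The part of cells in no class in these values was not tested. Since a UMI is counted once per molecule at its 3′ end, only differences of this ratio between cells and days are described, not its distance from 1. In the pluripotency class it was 0.51 to 1.00 (median 0.93), in the mesendoderm class 1.19 to 2.80 (median 1.92) and in the somatic class 0.29 to 3.63 (median 1.97). The ratio was higher in mesendoderm-marker cells than in the pluripotency class in 6 of 6 pools, by 0.26 to 2.47 on the log2 scale. In somatic-class cells it was higher in 7 of 8 pools, and the exception, pool A of D15, had 4 UMIs of LEFTY2 against 14 of LEFTY1. Over the 16 pools the 2 genes ran together all the same, with a Pearson r of 0.994 on log2(CPM + 1), given as a description of pools that differ mostly by day.

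**Figure D4:**
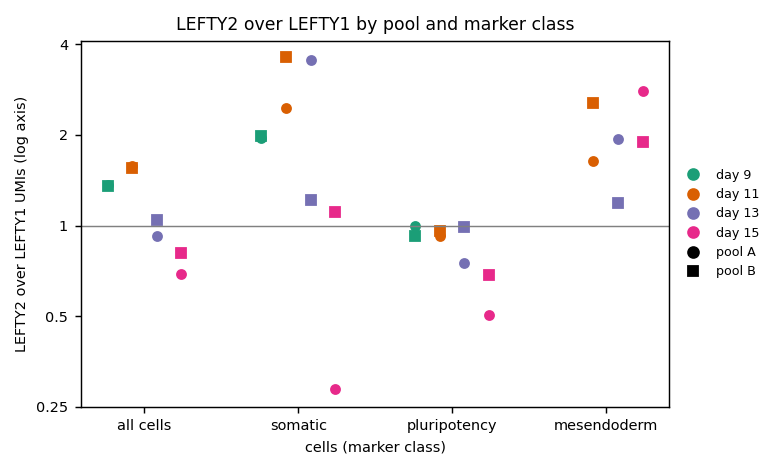
Ratio of LEFTY2 to LEFTY1 UMIs (log axis) in all cells and in the 3 marker classes, 1 point per pool, coloured by day. The pluripotency class lies between 0.51 and 1.00 and the mesendoderm class, drawn without D9 for its few cells, between 1.19 and 2.80.

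Within cells, the number with UMIs of both of 2 genes was divided by the number that their shares give, in each pool of D9 to D15 where that number was 5 or more. Cells of 1 pool share a library, so these ratios are descriptions. Over the 15 pairs without CER1 the medians over pools went from 1.09 (LEFTY2 with FOXH1) to 1.84 (LEFTY1 with LEFTY2) among all cells, with a middle value of 1.39. Within the pluripotency class the same pairs went from 0.97 to 1.39, with a middle value of 1.02. The 5 pairs with TDGF1 are bounded near 1 there, since most cells of the class had TDGF1, and nothing is read from them. Of the other pairs 4 were above 1 in 8 of 8 pools: LEFTY1 with LEFTY2 at 1.39, NODAL with LEFTY1 at 1.24, NODAL with LEFTY2 at 1.20 and NODAL with GDF3 at 1.12. GDF3 with LEFTY1, LEFTY2 or FOXH1 was above 1 in 7 of 8 pools each, with medians of 1.05, 1.05 and 1.06. FOXH1 was at 1.00 with NODAL (above 1 in 4 of 8 pools), 0.97 with LEFTY1 (2 of 8) and 0.97 with LEFTY2 (2 of 8). At 10000 UMIs FOXH1 was at 1.02 with NODAL (5 of 8) and at 1.00 with LEFTY1 and with LEFTY2 (4 of 8 each). At that depth NODAL with GDF3 was above 1 in 7 of 8 pools and LEFTY2 with GDF3 in 5 of 8. GDF3 with LEFTY1 or FOXH1 was above 1 in 8 of 8, as were the pairs among NODAL, LEFTY1 and LEFTY2.

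**Figure D5:**
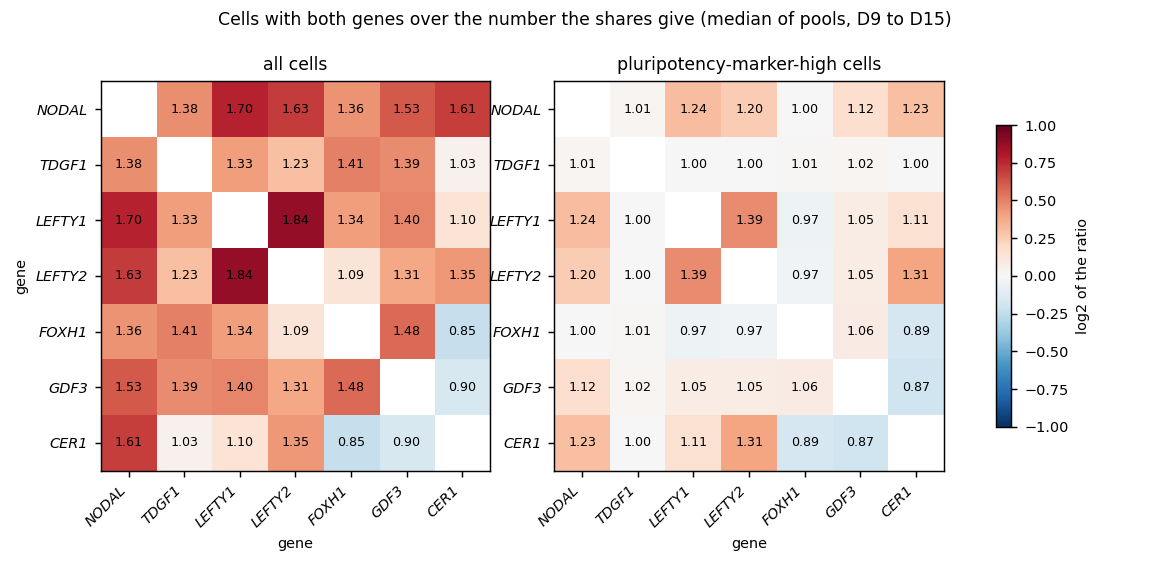
Number of cells with both genes of a pair over the number that their shares give, as the median over the pools of D9 to D15, for all cells (left) and the pluripotency class (right), with colour for log2 of the ratio. LEFTY1 with LEFTY2 stands out at 1.84 and 1.39, while FOXH1 and GDF3 with CER1 lie below 1.

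Among all cells CER1 with NODAL was at a median of 1.61, above 1 in the 5 pools that could be used, and with GDF3 at 0.90, below 1 in all 6. With FOXH1 it was at 0.85, but above 1 in both pools of D11 (1.16 and 1.62), and with TDGF1 at 1.03, above 1 in 4 of 7. These values depend on depth. Without thinning CER1 was at 1.06 with GDF3 and at 1.09 with FOXH1, above 1 in 8 of 8 pools for both. In cells with a NODAL UMI, a UMI of LEFTY1 or LEFTY2 was seen in 74.0% and 67.7% on D9 and in 69.2% and 60.7% on D15, against 23.6% and 29.6% and against 26.4% and 34.7% of the cells without one. On D11 these shares were 74.4% and 68.6% against 52.7% and 32.5%, and on D13 63.9% and 47.6% against 26.0% and 32.4%. On D9 FOXH1 was in 34.5% and 32.9% of NODAL cells against 8.39% and 11.1% of others, and on D15 in 51.3% and 52.1% against 51.1% and 49.5%. On D11 it was in 41.1% and 41.3% against 23.6% and 16.9%, and on D13 in 58.6% and 32.8% against 34.3% and 28.2%. The pluripotency class made up 20.8% and 22.9% of cells on D9 and 78.1% and 68.8% on D15, and within it NODAL with FOXH1 was at 1.09 and 1.03 already on D9. The part of class makeup in the contrast between days was not tested. Already on D7, the 48 and 26 cells with NODAL had TDGF1 in 45.8% and 65.4%, against 26.0% and 14.3% of the other cells.

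The rest of the pathway was read from lists of receptors and SMADs, processing enzymes, related factors, and feedback or target genes. Of 7 receptors and SMADs 6 were tested (ACVR1C was not), and none was called from D7 to D9 or D9 to D11, where 4.59% and 2.92% of all genes were called higher, so nothing is read from this count. Their median log2 fold change was 0.13 in either step. ACVR2B, a type II receptor, rose by 1.53 from D0 to D3 (adjusted p = 9.12e-05), by 0.998 from D5 to D7 (adjusted p = 0.00985) and by 1.65 from D9 to D15 (adjusted p = 5.71e-05). SMAD3, a signal carrier, fell by 1.34 from D0 to D3 (adjusted p = 0.000388) and by 0.997 from D9 to D15 (adjusted p = 0.00353). FURIN, the tested one of the 2 processing enzymes, was not called between any neighbouring days. Of 6 related factors 2 were tested. FST, which binds activin, rose by 1.94 from D7 to D9 (adjusted p = 9.95e-05), and INHBA, a subunit of activin, by 1.43 from D9 to D11 (adjusted p = 0.00403). By class INHBA was 5.46 lower on the log2 scale in the pluripotency class than in the somatic class (log2 difference -5.46, adjusted p = 3.20e-07), the opposite direction to NODAL.

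Of 9 feedback and target genes 7 were tested (GSC and T were not), and 5 of them rose from D7 to D9, where 4.59% of all genes did, with a list median of 1.94. EOMES and MIXL1, mesendoderm factors, had the largest changes, 6.62 (adjusted p = 0.000166) and 4.62 (adjusted p = 8.58e-06), and the other 3 were PMEPA1, SMAD7 and SKIL, which restrain TGF-beta signals. On D7 EOMES and MIXL1 were at 0.0105 and 0.383 CPM. Both reached the 5% limit through the late days, where they were high, so their part in the count supports nothing. From D9 to D11 EOMES rose by 3.11 (adjusted p = 0.00159) and MIXL1 by 2.13 (adjusted p = 0.000842). PMEPA1 was lower in the pluripotency class than in the somatic class by a log2 difference of -1.69 (adjusted p = 0.000191), while SKIL was 1.32 higher (adjusted p = 3.36e-06). In that comparison 2 of the 7 tested were called higher and 1 lower, with a list median of -0.10, where 35.8% of all genes were called higher and 35.8% lower.

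Among genes outside the list, the tested genes most like each of the 7 over the 16 pools (Pearson r of log2(CPM + 1), which the day drives, given with no test) were as follows. FGF19 was nearest to NODAL (r = 0.993), ahead of C4orf51 and TJP3, MDK to TDGF1 (0.995), ahead of GPC4 and CALB1, and ABHD12B to GDF3 (0.997), ahead of RTP1 and RP11-359M6.1. AIF1L was nearest to FOXH1 (0.997), ahead of POU5F1 and CDH3, where counts of POU5F1 can include transfected RNA. FGF8, a growth factor of the early embryo, was nearest to both LEFTY1 (0.989) and LEFTY2 (0.991), followed by CR1L and RPRM for LEFTY1 and PMEPA1 and TLE2 for LEFTY2. LHX1 (0.991) and EOMES (0.989), both among the mesendoderm markers, were nearest to CER1, ahead of CHST9.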

How the data were processed

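Single-cell RNA sequencing (10x Genomics, 3′ chemistry) was measured in 22 libraries of 16 pools. The authors counted UMIs per gene and barcode with Cell Ranger 2.2 on hg38, and the deposited values are raw counts of the barcodes that Cell Ranger called as cells, not normalised, with aliquots of a pool apart. Aliquots were added. Barcodes under 1000 genes or over 10% mitochondrial UMIs were dropped, which left 41975 of 44197. No doublet caller was run, so doublets remain. UMIs summed per pool were tested with edgeR 4.0.16 (quasi-likelihood, TMM, R 4.3.3), over genes detected in at least 5% of cells; DESeq2 1.42.0 was an alternative. The scripts were tested on simulated counts. Of 10 pluripotency markers listed, 9 were in the files used here. Classes were compared with the pool as a block where they had at least 20 cells. Shares, classes and co-expression used cells thinned to 5000 UMIs. Python 3.11.15, numpy 2.4.6, pandas 2.3.3, scipy 1.17.1 and matplotlib 3.10.9 were used.

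The members, gene lists and tests were chosen with earlier results of these data known. Named are the 7 genes, the 3 tested genes most correlated with each, and, of the pathway lists, the 2 largest called changes from D7 to D9 and D9 to D11; other list genes and the aliquots of D9 were named after their values were seen. Over 28 pairs of days the differences between pools A and B correlated from -0.45 to 0.82, with a median of -5.32e-06. This range does not settle whether the letters pair pools, and the main fit did not use them to do so. Alternatives were DESeq2, DESeq2's size factors, no filter on genes or cells, a block for the pool letter, the 4 pools compared on their own, no cells of the deepest 5%, other thinning and class limits, no block for classes, and each pool left out. The result of 1 gene of the feedback and target list from D9 to D11 is not reported here.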

Additional observations from a re-analysis of the deposited data

Results flagged for a closer look

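Of the antagonists, LEFTY1 changed sides between the mesendoderm-marker cells and the pluripotency class over time. Its log2 difference of the first minus the second was -0.50 and -0.77 in the pools of D11 (mean -0.64) and 0.69 and 1.00 in those of D15 (mean 0.84), so that the 2 pools of a day lay on the same side of 0 and the 2 days on opposite sides. On D13 the pools were at -0.58 and 0.49. The difference between days was not tested. The mesendoderm class held 174 and 139 cells on D11 and 24 and 116 on D15. All log2 differences flagged here are of CPM with 1 CPM added in both classes.

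GDF3 was lower in the mesendoderm-marker cells on D11 (mean log2 difference -1.13) and D13 (mean -0.82) and higher on D15 (mean 0.47, from 0.76 and 0.18). This difference between days was not tested either.

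CER1 differed between the pluripotency and the somatic class by a mean log2 difference of 0.37 on D9, -2.27 on D13 and -1.21 on D15, also untested between days. On D9 these were 10 and 12 UMIs in the pluripotency class against 1 and 3 in the somatic class. In CPM they were 0.375 and 0.418 against 0.0342 and 0.130. The added 1 CPM exceeds all of these values and draws the log2 difference of D9 towards 0. Pool A of D13, at -3.24, lay below the other 7 pools, which ranged from -1.30 to 0.45. The added 1 CPM narrows that range through the pools of D9, so nothing is read from this flag. Chance flags about 1 in 20 groups in this way. In that pool 499 UMIs of CER1 were in 362 somatic-class cells of which 2.76% had a UMI at 5000 UMIs per cell.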

How the results depend on the processing

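Of the called changes of single genes, none reversed under any alternative, leaving out pools included. With only the 4 pools of the days compared, 0 genes were called for D3 against D0 (2 with all pools), 2 for D5 against D3 (4), 2 for D11 against D9 (1) and 6 for D15 against D9 (3). Without the replicate block for the pool, 1 gene was called between mesendoderm-marker cells and the pluripotency class (4 with it). The share of all genes called in each of these fits, and with a pool left out, is not given here. The counts are therefore not read as results about the 7 genes. With the pool letter as a replicate block no call of the 7 genes changed, and the uncalled CER1 took values of -0.049 for D3 against D0 and 0.13 for D5 against D3.

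Leaving out 1 pool at a time, the genes called ranged from 0 to 2 for D3 against D0, 1 to 4 for D7 against D5 and 1 to 2 for D15 against D9. Counts over all genes moved more than those of the 7: DESeq2 called 889 for D5 against D3 (455 by edgeR), 610 for D7 against D5 (263), 1654 for D9 against D7 (943), 1198 for D11 against D9 (523), 473 for D13 against D11 (15), 654 for D15 against D13 (11) and 4102 for D15 against D9 (2692).

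Reversals were all of uncalled values, and their causes were not tested. Without the filter on genes LEFTY1 was at 0.052 for D3 against D0 and -0.16 for D15 against D13, and at a class limit of 0.5 it was at 0.036 for the mesendoderm comparison. Leaving out pools, the log2 fold change of LEFTY1 ranged from -0.24 to 0.079 (D3 against D0), -0.29 to 1.30 (D7 against D5), -0.39 to 0.60 (D15 against D13) and -0.28 to 0.092 (mesendoderm). LEFTY2 ranged from -0.32 to 3.08 (D7 against D5) and -0.69 to 0.13 (D15 against D13), FOXH1 from -0.13 to 0.72 (D13 against D11) and -0.011 to 0.83 (D15 against D13). NODAL ranged from -3.69 to 3.03 (D5 against D3), GDF3 from -0.066 to 0.41 (D11 against D9), and CER1 from 0 to 2.92 (D7 against D5) and -0.48 to 0.21 (D13 against D11).

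Shares depend on depth: 136 of 224 shares at other depths or without the deepest cells of each pool moved by more than the spread between pools. Among all cells the middle co-expression ratio over the 15 pairs without CER1 fell with depth. It was 1.44 at 2000 UMIs, 1.39 at 5000, 1.28 at 10000 and 1.13 without thinning, and 1.40 at 5000 without the deepest 5% of cells. Single pairs did not all fall, such as NODAL with FOXH1 at 1.31 at 2000 UMIs and 1.36 at 5000. In the pluripotency class the middle value was 1.02 at 5000 and at 10000 UMIs. With 2 pools per day small changes can be missed.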

Other observations

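Pools of 1 day differed in the somatic class. At 5000 UMIs CER1, most of whose UMIs were in mesendoderm-marker cells, was seen in 11.2% of somatic-class cells in pool A of D11 and in 0.881% in pool B, though the mesendoderm class made up 5.95% and 4.24% of these pools. The same 2 pools differed in LEFTY1 (19.4% and 4.76% of somatic-class cells), NODAL (15.3% and 3.52%) and FOXH1 (12.1% and 1.94%). On D13 pool B was the higher, with CER1 in 9.59% of somatic-class cells against 2.76% in pool A. The part of free RNA in these shares was not tested.

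Receptors and SMADs were also compared between marker classes. In the mesendoderm-marker cells against the pluripotency class 4 of the 6 tested were higher by edgeR and 1 was lower, where 20.3% of all genes were higher and 18.9% lower. ACVR1B, the type I receptor for Nodal and activin, was 1.80 higher on the log2 scale (adjusted p = 0.000103), ACVR2A 1.17 higher (adjusted p = 8.23e-05) and SMAD3 1.11 higher (adjusted p = 0.000635). ACVR2B had a log2 difference of -0.67 (adjusted p = 0.00226). FST was 3.68 higher in the mesendoderm-marker cells (adjusted p = 0.000185), and SKIL had a log2 difference of -1.25 (adjusted p = 4.81e-05). EOMES and MIXL1 chose the class and are left out here.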
